A study of Mus musculus with 8 samples.

Results

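The genes described here are 8 claudins (*Cldn1*, *Cldn2*, *Cldn3*, *Cldn5*, *Cldn9*, *Cldn10*, *Cldn11* and *Cldn12*) and occludin (*Ocln*), measured in the hippocampus of mice exposed to benzo[*a*]pyrene (BaP). The 9 genes were taken by symbol, with every array probe whose RefSeq accession matched one of them. They had 11 of the 55681 probes on the array, and 10 of the 11 were bright enough to be among the 32599 probes tested. *Cldn2* and *Ocln* had more than 1 probe, and each of the other genes had 1.

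Claudins and occludin are membrane proteins of tight junctions, the seals between neighboring cells that limit what passes through the gap between them. Each claudin gives the seal its own character: some close it, whereas others form a pore for water or ions. In the brain they sit in different places. *Cldn5* is the main claudin of the endothelium at the blood-brain barrier, *Cldn1*, *Cldn2*, *Cldn3* and *Cldn9* belong to epithelia such as the choroid plexus, which secretes cerebrospinal fluid into the ventricle beside the hippocampus, and *Cldn11* seals the layers of central myelin.

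The hippocampus came from adult male Muta Mouse, a transgenic line with a *lacZ* mutation reporter that control and exposed animals both carry. BaP is a polycyclic aromatic hydrocarbon that binds the aryl hydrocarbon receptor (AHR) and, once metabolized, damages DNA. BaP-exposed mice received 70 mg/kg bw per day in olive oil by oral gavage for 3 days, control mice received the oil alone (0 mg/kg bw), and the tissue was taken 24 hr after the last dose. There were 4 control and 4 BaP-exposed mice on 8 Agilent arrays of 1 slide, with each hippocampus in Cy5 and a universal mouse reference RNA in Cy3.

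A level is given as the log2 ratio of hippocampus over reference, so a difference of 1 is a doubling, and levels of different probes are not compared with each other. The arrays' median Cy5 signal was 108 to 174 over a median background of 67 to 71, and 56.6% to 67.4% of the spots were well above background. All 14 markers of hippocampal neurons were well above background on every array. For 4 arrays (replicates 3 and 4 of both groups, which fill row 2 of the slide) the sample's title and its source name put it in different groups. Grouping here follows the titles, since the mouse numbers in the labels run with them, and the log2 fold change of each member is also given within slide row 1, where the labels do not conflict, and row 2. Whole hippocampus is a mixture, so fewer cells of a type and less RNA per cell cannot be told apart in any difference below.

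For *Cldn5*, *Cldn2* and *Ocln*, on which the results turn, the 250 bases before the transcription start are given here as the sequence context of each gene. The sequences are from RefSeq (GRCm38.p6), written 5′ to 3′ on the strand of the gene. They were searched for GCGTG, the core of the element that the AHR binds, and for the TATA box TATAAA, on both strands. Capitals mark a match in the *Cldn2* promoter (the letters TATAAA) and in the *Ocln* promoter (CACGC, which is GCGTG on the other strand).
*Cldn5* (chr16:18776597-18776846, plus strand): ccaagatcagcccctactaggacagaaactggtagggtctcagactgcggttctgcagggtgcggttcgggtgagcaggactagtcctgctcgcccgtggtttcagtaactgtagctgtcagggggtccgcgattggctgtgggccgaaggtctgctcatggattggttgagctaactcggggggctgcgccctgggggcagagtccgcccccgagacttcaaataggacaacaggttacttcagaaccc
*Cldn2* (chrX:139800558-139800807, plus strand): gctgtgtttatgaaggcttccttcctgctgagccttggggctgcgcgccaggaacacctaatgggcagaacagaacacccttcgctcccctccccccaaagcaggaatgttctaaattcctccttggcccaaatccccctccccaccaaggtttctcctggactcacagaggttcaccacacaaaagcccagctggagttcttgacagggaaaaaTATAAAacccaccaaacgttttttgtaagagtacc
*Ocln* (chr13:100552719-100552968, minus strand, the first of its starts): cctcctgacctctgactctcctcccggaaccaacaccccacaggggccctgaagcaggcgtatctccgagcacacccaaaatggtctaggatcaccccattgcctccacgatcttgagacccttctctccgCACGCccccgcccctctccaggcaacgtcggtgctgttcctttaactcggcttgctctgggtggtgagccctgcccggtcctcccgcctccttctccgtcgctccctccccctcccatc
GCGTG on either strand was in a promoter of 3 of the 8 members with promoters listed. It was in 6 of their 12 promoters, namely 2 of the 3 of *Cldn12* and both of *Ocln* and of *Cldn10*, against 28.2% of all 32851 promoters. The matching windows of *Cldn12* overlap, as do those of *Ocln*, so the 6 are not separate counts. TATAAA was in the *Cldn2* promoter only among the 12, against 12.4% of all. The letters are not in the *Cldn5* window shown, and a match says nothing of binding.

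In limma's moderated test, 0 of the 10 member probes passed an adjusted p of 0.05 with a fold change of 1.5, where 0.0092% of all tested probes did. Adjusted p ran from 0.138 (*Cldn5*) to 0.807 (*Cldn10*). In direction, 8 of the 10 probes were higher in BaP-exposed mice and *Cldn5* and *Cldn10* were lower, while 48.8% of all probes were higher. The median log2 fold change was 0.352 over the members and -0.00439 over all probes. An unadjusted p of 0.05 was passed by 3 member probes (background 8.77%): *Cldn5*, which was lower (background 4.23% lower), and both *Ocln* probes, which were higher (background 4.53% higher). The groups did not overlap for 2 of them (background 5.06%), *Cldn5*, lower (background 2.55%), and the dimmer *Ocln* probe, higher (background 2.52%). The dimmer *Ocln* probe reached the filter on dim probes through its 4 exposed arrays and was detected on 2 control arrays, so its place in these counts is a description and no support for a difference. *Cldn1* (1 control and 3 exposed arrays) and *Cldn3* (2 and 3) also passed the filter with more exposed than control arrays. *Cldn1*, *Cldn2* and *Cldn3* followed the same marker mean (below) and are not separate observations. The count of directions and the median are therefore descriptions as well. A difference of 1.5-fold or more was measured for *Cldn2* and *Cldn3* only (background 1.02%), and in both the groups overlapped. The smallest p that an exact permutation test of 4 mice against 4 can give is 0.0286.

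**Figure D1:**
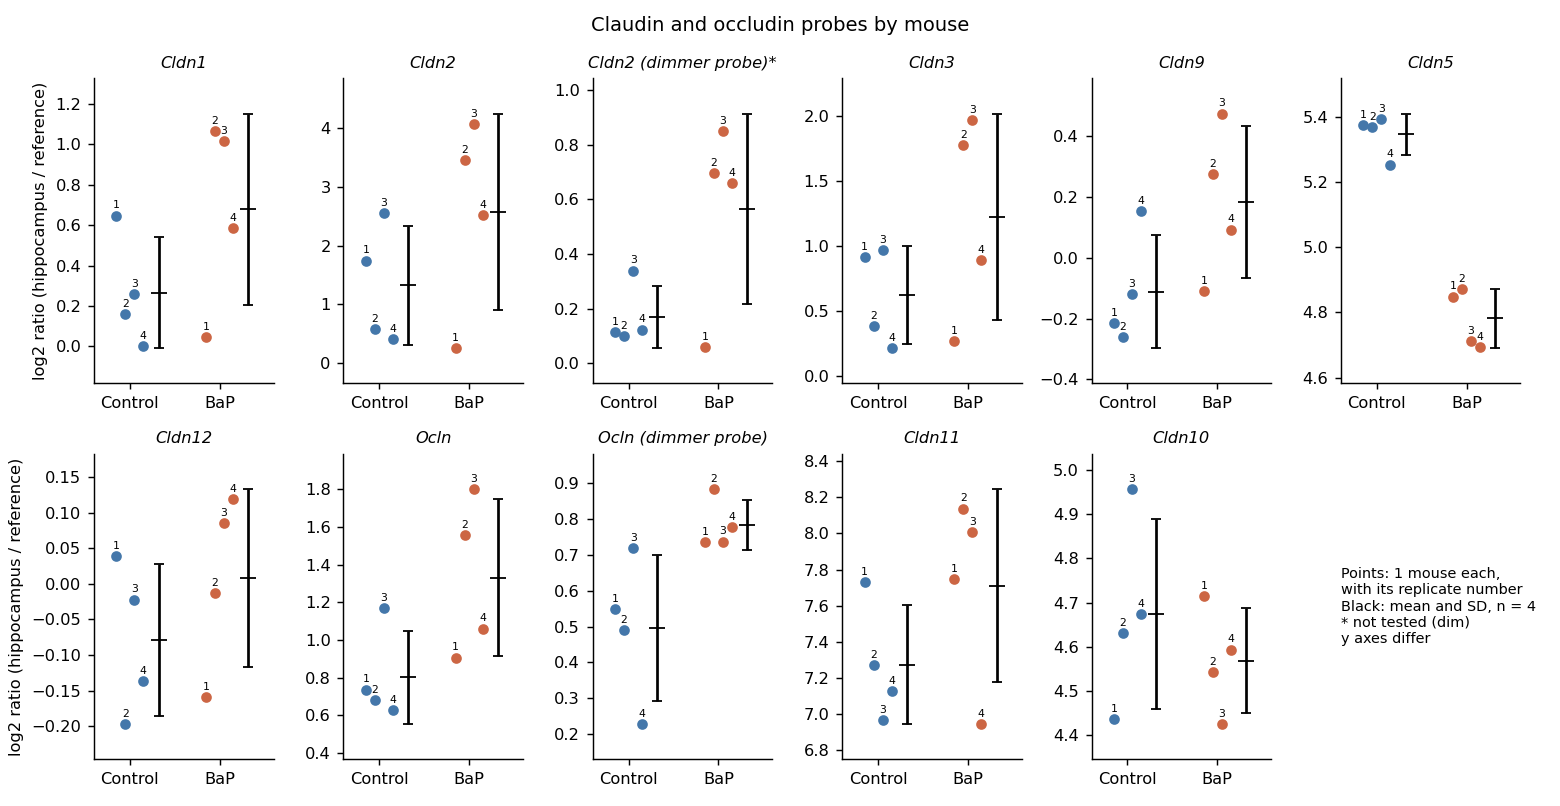
Log2 ratio of hippocampus over reference (vertical axis, a different range in each panel) for the 11 probes in control (blue) and BaP-exposed mice (orange), with 1 numbered point per mouse and the mean with its SD (n = 4) in black. *Cldn5* and the dimmer *Ocln* probe show separate groups, and in the panels of *Cldn1*, *Cldn2* and *Cldn3* BaP-exposed mouse 1 lies among or below the lowest control mice while BaP-exposed mice 2 and 3 lie above all of them.

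*Cldn5* was an endothelial member and, of all members, the one with the clearest separation. Its log2 ratio was 5.37, 5.37, 5.39 and 5.25 in control mice 1 to 4 and 4.85, 4.87, 4.71 and 4.69 in BaP-exposed mice 1 to 4. Every exposed mouse was below every control mouse, and within each group the values lay close together (control SD 0.0632, BaP SD 0.0911, n = 4 each). The log2 fold change was -0.57 (SE 0.0794), 1.48-fold lower, with p = 2.97e-05 and an adjusted p of 0.138 from limma (exact permutation p = 0.0286, 2-sided). By p it ranked 7 of 32599 probes, so the difference was well beyond the spread between mice but not beyond the adjustment over all probes. *Cldn5* and *Cldn2* were picked by the study for RT-PCR partly on the results of these samples, so their appearance here is not independent evidence.

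The lower *Cldn5* value was in the hippocampal channel. In Cy5 alone, centered on each array's median, *Cldn5* was 4.79 to 5.08 in control and 4.31 to 4.43 in exposed mice. In the Cy3 reference, where no difference between groups was made by the design, its mean was 0.117 on control arrays and -0.146 on exposed arrays, also lower. Within slide row 1 the log2 fold change was -0.51 (SE 0.124) and within row 2 it was -0.62 (SE 0.128). Its size depended on the processing. It was -0.37 (SE 0.0981) with a normexp offset of 0, and -0.27 (SE 0.131) with median centering, which moved the median of all probes to 0.167. In the scanner software's own log ratio it was -0.11 (SE 0.109, adjusted p = 0.801 from limma). Grouped by source name in place of title, it was 0.05.

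**Figure D2:**
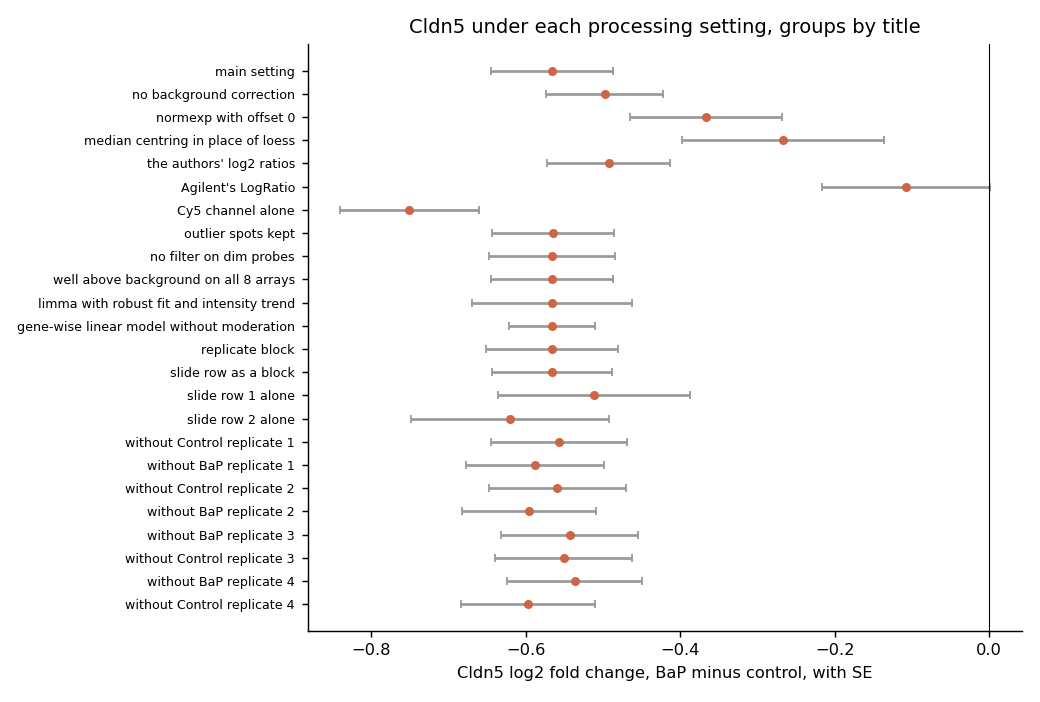
Log2 fold change of *Cldn5*, BaP minus control (horizontal axis, with SE), under the main setting, each processing alternative and each mouse left out, with groups by title. All values lie below 0, from -0.75 in the Cy5 channel alone to -0.11 in the scanner software's log ratio, and leaving out a mouse gave -0.60 to -0.54.

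Most other endothelial genes were not lower in the same mice. Of 23 tested endothelial markers, 17 were higher and 6 lower in exposed mice, their median being 0.10 on the log2 scale, and 0 were called, while 4 higher and 0 lower passed an unadjusted p of 0.05 (background 4.53% and 4.23%). The lowest of them was *Cd93*, a surface glycoprotein, at -0.32 (SE 0.145), above *Cldn5*. *Slc2a1*, the glucose transporter of the blood-brain barrier, was -1.62, -1.93, -1.36 and -1.95 in control and -1.19, -1.14, -0.94 and -1.27 in exposed mice. Its groups did not overlap, in the direction opposite to *Cldn5* (log2 fold change 0.58, SE 0.137, adjusted p = 0.434 from limma). *Slco1c1*, a thyroid hormone transporter, had a log2 fold change of 0.46, *Slco1a4*, an organic anion transporter, 0.35, *Ly6c1* 0.33 and *Tek*, the angiopoietin receptor, 0.26, each with an adjusted p above 0.5 from limma. The mean of the endothelial markers was 1.34 to 1.68 in control and 1.44 to 1.72 in exposed mice (difference 0.0944, exact permutation p = 0.314). The difference was 0.0344 (without control mouse 4) to 0.154 (without BaP-exposed mouse 1) when each mouse was left out, and 0.268 with median centering (exact permutation p = 0.143).

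Set against that marker mean in the same mouse, *Cldn5* was 3.76, 3.91, 3.72 and 3.91 in control and 3.41, 3.18, 2.99 and 3.07 in exposed mice. The groups did not overlap, and the difference of -0.66 was as large as that of *Cldn5* alone (exact permutation p = 0.0286, 2-sided, and 0.257 after Benjamini-Hochberg adjustment over the 9 members). It was -0.54 within slide row 1 and -0.78 within row 2. In the scanner software's log ratio it was -0.27 (exact permutation p = 0.143). Across the 8 mice the relation of *Cldn5* to the endothelial markers was weak and negative (Pearson r = -0.316, exact permutation p = 0.424, Spearman rho = -0.19, p = 0.665), and r was -0.512 without control mouse 4 and BaP-exposed mouse 1. Its sign was not stable, as r was 0.177 with each group's mean removed and 0.0915 with median centering.

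Another group of genes did separate the same mice. Of 6 tested erythroid genes 6 were lower in exposed mice, and 2 were called (background 0.0092%): *Hbb-bs*, a beta-globin (log2 fold change -1.90, SE 0.139, adjusted p = 0.00233 from limma), and *Alas2*, the erythroid enzyme of heme synthesis (-1.05, SE 0.118, adjusted p = 0.0445 from limma). *Hba-a1*, an alpha-globin, was at -0.94 (SE 0.119) with an adjusted p of 0.0755 from limma. The mean of the 6 was 3.81 to 4.01 in control and 2.89 to 3.20 in exposed mice, without overlap (background over single probes 2.55% lower), and the difference was -0.973 in slide row 1 and -0.82 in row 2. Over all 8 mice it was -0.897, but -0.575 with median centering and -0.438 in the scanner software's log ratio. The part of the erythroid genes in the *Cldn5* result was not tested. Ranked by Pearson r with *Cldn5* over the 8 mice among 14877 genes, those most alike included *Hbb-bs* (0.95), *Ccnb2* (0.943), *Nol4* (0.94) and *H2aj* (0.932). All of them were lower in exposed mice, which a high r with *Cldn5*, itself in separate groups, fixes in advance.

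*Ocln*, which encodes the 4-span protein occludin and was grouped with the endothelial members although epithelia express it too, was higher. The brighter probe gave 0.74, 0.68, 1.17 and 0.63 in control and 0.91, 1.56, 1.80 and 1.06 in exposed mice. Control mouse 3 lay above BaP-exposed mice 1 and 4, so the groups overlapped (log2 fold change 0.53, SE 0.198, adjusted p = 0.528 from limma, exact permutation p = 0.0857). The dimmer probe gave 0.55, 0.49, 0.72 and 0.23 in control and 0.74, 0.88, 0.74 and 0.78 in exposed mice. Here the groups did not overlap, by a narrow margin (log2 fold change 0.29, SE 0.106). This probe was well above background in 2 control mice, 4 exposed mice and 0 reference channels, so its values are given as a description. Each probe had nearly the same value in both slide rows (0.52 and 0.53 for the brighter, 0.29 and 0.28 for the dimmer). The sizes depended on the processing, at 0.73 for the brighter and 0.62 for the dimmer with a normexp offset of 0, and at 0.82 and 1.11 in the scanner software's log ratio. Set against the endothelial marker mean, *Ocln* was 0.43 higher in exposed mice (exact permutation p = 0.0857).

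*Cldn12*, a claudin expressed in many tissues and in brain endothelium, was 0.04, -0.20, -0.02 and -0.14 in control and -0.16, -0.01, 0.09 and 0.12 in exposed mice. The groups overlapped, and the log2 fold change was 0.09 with a 95% half-width of 0.181 (adjusted p = 0.799 from limma). It was -0.0078 in slide row 1 and 0.18 in row 2, 0.34 (SE 0.15, adjusted p = 0.254 from limma) with median centering, and 0.0477 to 0.143 with a mouse left out. In Cy5 alone, centered on each array's median, *Cldn12* was 3.92 to 4.29 in control and 4.32 to 4.68 in exposed mice. None of the 3 endothelial members, *Cldn5*, *Ocln* and *Cldn12*, passed an adjusted p of 0.05, and the size of each depended on the processing.

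**Figure D3:**
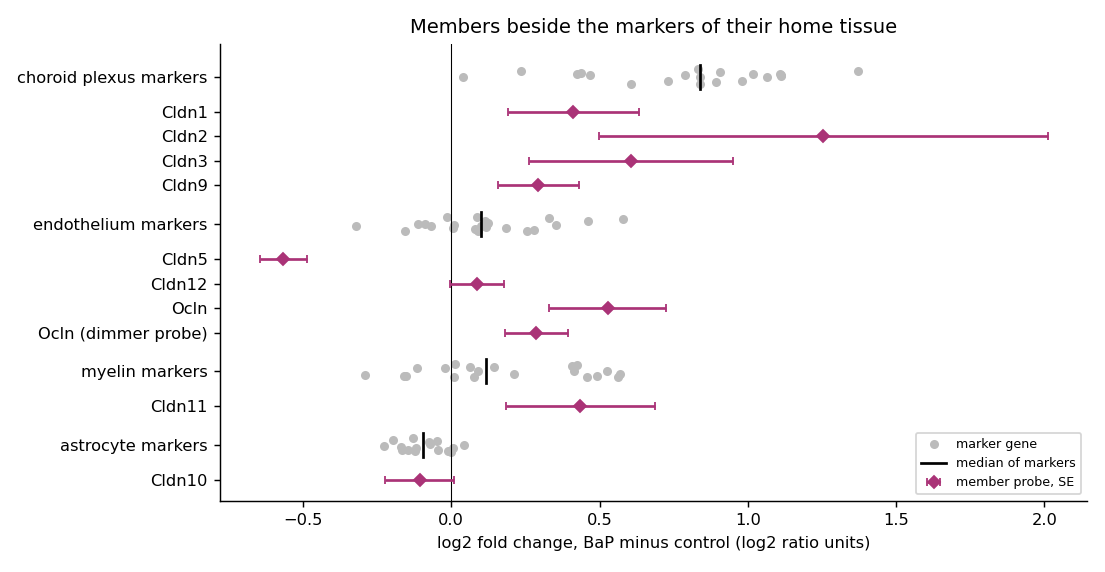
Log2 fold change, BaP minus control (horizontal axis), of each tested member probe with its SE (diamonds) below the markers of its home tissue (gray points, 1 per gene, with a black bar at their median). *Cldn5* lies at -0.57, left of all 23 endothelial markers, while *Cldn1*, *Cldn3* and *Cldn9* lie to the left of the choroid plexus median of 0.84.

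The choroid plexus members all had positive log2 fold changes and varied widely between the mice of a group. *Cldn2*, a pore-forming claudin that lets cations and water pass, gave 1.75, 0.58, 2.56 and 0.41 in control and 0.26, 3.46, 4.08 and 2.52 in exposed mice. BaP-exposed mice 2 and 3 were above every control mouse, and BaP-exposed mouse 1 was below all of them. The log2 fold change was 1.25 (SE 0.757), a 2.39-fold difference, with an adjusted p of 0.648 from limma (exact permutation p = 0.286). It was 2.03 without BaP-exposed mouse 1, and 0.76 without BaP-exposed mouse 3. It was 0.70 in slide row 1 and 1.81 in row 2. The reference channel was above background on 1 array for this probe, so its fold change rests on a ratio to a near-background signal. The dimmer *Cldn2* probe was well above background in 0 control mice and in 3 exposed mice and was not tested. Its log2 ratios were 0.12, 0.10, 0.34 and 0.12 in control and 0.06, 0.70, 0.85 and 0.66 in exposed mice, the lowest again in BaP-exposed mouse 1. In Cy5 its mean was 1.25-fold higher in exposed than in control mice, where the control level was taken as the dimmest signal still detected on an array or the probe's own if higher. The exposed mean took in a mouse where the probe was not detected, so the value is a description and not a lower bound.

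*Cldn3*, a sealing claudin, gave 0.91, 0.38, 0.97 and 0.21 in control and 0.27, 1.78, 1.97 and 0.89 in exposed mice (log2 fold change 0.61, SE 0.344, adjusted p = 0.633 from limma). *Cldn1*, which seals the epidermis, gave 0.65, 0.16, 0.26 and 0.00 in control and 0.04, 1.07, 1.01 and 0.59 in exposed mice (0.41, SE 0.221, adjusted p = 0.613 from limma). *Cldn9*, known for the tight seal of the inner ear, gave -0.22, -0.26, -0.12 and 0.15 in control and -0.11, 0.27, 0.47 and 0.09 in exposed mice (0.29, SE 0.137, adjusted p = 0.582 from limma). Between slide rows 1 and 2 the log2 fold change was 0.38 and 0.84 for *Cldn3*, 0.15 and 0.67 for *Cldn1*, and 0.32 and 0.27 for *Cldn9*. Without BaP-exposed mouse 1 it was 0.92 for *Cldn3* and 0.62 for *Cldn1*, and without BaP-exposed mouse 3 it was 0.36 for *Cldn3* and 0.20 for *Cldn9*. In each of the 3 genes BaP-exposed mice 2 and 3 were the highest of all 8, and BaP-exposed mouse 1 lay within the range of the control mice. These probes were dim: *Cldn1* was well above background in 1 control and 3 exposed mice, *Cldn3* in 2 and 3, and *Cldn9* in 3 and 3, and the reference channel was above background on 0 arrays for *Cldn1* and *Cldn3*. The size of the difference depended on the processing, at 0.95 for *Cldn1*, 0.98 for *Cldn3* and 0.48 for *Cldn9* with a normexp offset of 0, and 1.97, 0.98 and 0.64 in the scanner software's log ratio.

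The mice lay in much the same order in the markers of the choroid plexus. All 20 choroid plexus markers were higher in exposed mice (median log2 fold change 0.84), but 0 passed an unadjusted p of 0.05. Their mean was 2.61, 1.63, 2.91 and 1.25 in control and 0.88, 3.61, 4.01 and 3.05 in exposed mice, a range of 3.13 over the 8 mice with the groups overlapping (difference 0.791, exact permutation p = 0.343). That difference was 0.128 in slide row 1 and 1.45 in row 2, and leaving out 1 mouse gave 0.415 (without BaP-exposed mouse 3) to 1.46 (without BaP-exposed mouse 1). *Kcnj13*, a potassium channel of the plexus epithelium, ran from 1.40 in BaP-exposed mouse 1 to 6.56 in BaP-exposed mouse 3. *Enpp2*, which encodes autotaxin, and *Kcne2*, a potassium channel subunit, had log2 fold changes of 1.11 with SEs of 0.843 and 1.01. *Ttr*, which encodes transthyretin, had a log2 fold change of 0.04 (SE 0.365).

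*Cldn2* followed the mean of these markers closely over the 8 mice (Pearson r = 0.987, exact permutation p = 4.96e-05, Spearman rho = 0.976, p = 0.000397). Without the mice farthest from the median on the marker axis (control mouse 4 and BaP-exposed mouse 1), r was 0.995. *Cldn3* (r = 0.947, exact permutation p = 0.000248) and *Cldn1* (r = 0.909, p = 0.00283) did so too, with rho of 0.905 and 0.881 and with r of 0.947 and 0.853 without those mice. *Cldn9* had r = 0.598 (exact permutation p = 0.119) and rho = 0.548, and r was 0.919 without them. For 9 such relations, of each member with its home markers, the adjusted p was 0.000446 for *Cldn2*, 0.00112 for *Cldn3*, 0.00776 for *Cldn1* and 0.134 for *Cldn9*. With 4 mice in a slide row, too few for a correlation, no value within rows is given, and with each group's mean removed r was 0.99 for *Cldn2*. The genes most alike to *Cldn2* among 14877 were *Slc16a8* (r = 0.999), a lactate transporter, *Prr32* (0.996), *Ins1* (0.996), *Wfdc2* (0.993) and *C1qtnf5* (0.993).

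Set against the choroid plexus mean of the same mouse, *Cldn2* was -0.86, -1.05, -0.35 and -0.84 in control and -0.63, -0.15, 0.06 and -0.53 in exposed mice. The groups overlapped and the difference was 0.46 in place of 1.25 (exact permutation p = 0.0857, 2-sided, 0.257 after adjustment over the 9 members). For *Cldn1*, *Cldn3* and *Cldn9* the difference relative to the markers was -0.38, -0.19 and -0.50 (exact permutation p = 0.571, 0.714 and 0.514). The part of choroid plexus content in these results was not tested beyond these values.

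**Figure D4:**
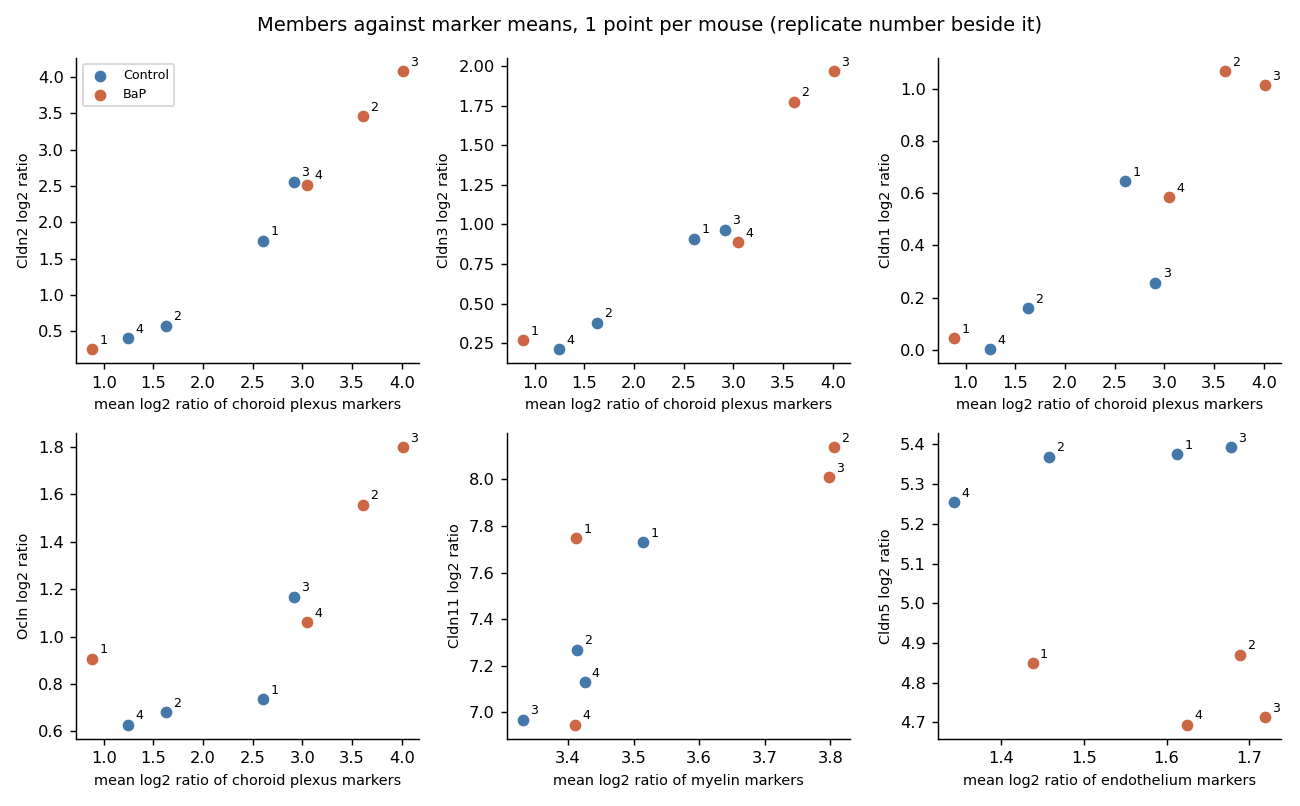
Log2 ratio of a member (vertical axes) against the mean log2 ratio of a marker list in the same mouse (horizontal axes), with 1 numbered point per mouse, control in blue and BaP-exposed in orange. *Cldn2* and *Cldn3* rise along the choroid plexus mean in both groups alike (r = 0.987 and 0.947), whereas *Cldn5* falls into 2 levels by group over the same endothelial range (r = -0.316).

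*Ocln* and *Cldn12* also ran with the choroid plexus list, a relation examined after the values were seen. The Pearson r of the brighter *Ocln* probe was 0.833 with choroid plexus markers (exact permutation p = 0.0109, rho = 0.833) and 0.795 with endothelial markers (p = 0.0207, rho = 0.929). *Cldn12* gave 0.832 (exact permutation p = 0.0153, rho = 0.762) and 0.801 (p = 0.0238, rho = 0.643). The means of both lists were highest in BaP-exposed mouse 3 and lowest in control mouse 4 and BaP-exposed mouse 1. Relations with the choroid plexus list are therefore not separate from those with the endothelial list. Without control mouse 4 and BaP-exposed mouse 1, r with the choroid plexus was 0.929 for *Ocln* and 0.734 for *Cldn12*. Over all 14 relations the adjusted p was 0.0304 for *Ocln* and 0.0356 for *Cldn12* with the choroid plexus. *Cldn5* (r = -0.38, rho = -0.31), *Cldn10* (-0.375, rho = -0.643) and *Cldn11* (0.333, rho = 0.238) had exact permutation p of 0.33 to 0.402 with the same list. Single mice decided these values: leaving out 1 mouse gave r of -0.69 (without BaP-exposed mouse 1) to -0.177 (without BaP-exposed mouse 3) for *Cldn5*, -0.82 (without control mouse 3, exact permutation p = 0.0327) to -0.164 (without BaP-exposed mouse 3) for *Cldn10*, and 0.124 (without BaP-exposed mouse 3) to 0.576 (without BaP-exposed mouse 1) for *Cldn11*.

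*Cldn11* was the myelin member. It gave 7.73, 7.27, 6.97 and 7.13 in control and 7.75, 8.14, 8.01 and 6.95 in exposed mice. Exposed mice 1 to 3 were above every control mouse, the first by a small margin, and BaP-exposed mouse 4 was below all of them. The log2 fold change was 0.44 (SE 0.25, adjusted p = 0.636 from limma, exact permutation p = 0.257), and it was 0.69 without BaP-exposed mouse 4. It was 0.44 in slide row 1 and 0.43 in row 2. The reference held little *Cldn11*, with a signal above background on 1 array.

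Of 20 myelin markers 15 were higher and 5 lower (median 0.119) and 0 were called, while 5 higher and 1 lower passed an unadjusted p of 0.05 (background 4.53% and 4.23%). *Opalin*, an oligodendrocyte membrane protein, had the highest value (0.57, SE 0.126, adjusted p = 0.381 from limma) and its groups did not overlap. *Tspan2* (0.56), *Tmem88b* (0.52), *Cnp* (0.49), an enzyme of the myelin cytoplasm, and *Gpr37* (0.46) came next, with *Tmem88b* at 0.36 in control mouse 1 against 1.67 to 1.87 in the other control mice, while *Mobp*, a structural myelin protein, was at -0.29 (SE 0.114) and *Mbp*, a main protein of myelin, was at -0.02. The mean of the list was 3.33 to 3.51 in control and 3.41 to 3.81 in exposed mice. *Cldn11* followed it over the 8 mice (Pearson r = 0.846, exact permutation p = 0.00345, 0.00776 after adjustment, rho = 0.81), though r was 0.655 without BaP-exposed mice 2 and 3 and 0.0473 in the scanner software's log ratio.

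Set against the myelin mean, *Cldn11* was 4.22, 3.86, 3.64 and 3.70 in control and 4.34, 4.33, 4.21 and 3.54 in exposed mice. The difference was 0.25 (exact permutation p = 0.371), with BaP-exposed mouse 4 the lowest of all. It was 0.44 without that mouse and 0.48 in the scanner software's log ratio. The genes most alike to *Cldn11* were *Otos* (r = 0.988), *Avpr1b* (0.983), a vasopressin receptor, *Tppp3* (0.981), *Tmprss6* (0.981) and *Zbtb20* (0.977), a transcription factor of hippocampal neurons. None of them is on the myelin list.

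**Figure D5:**
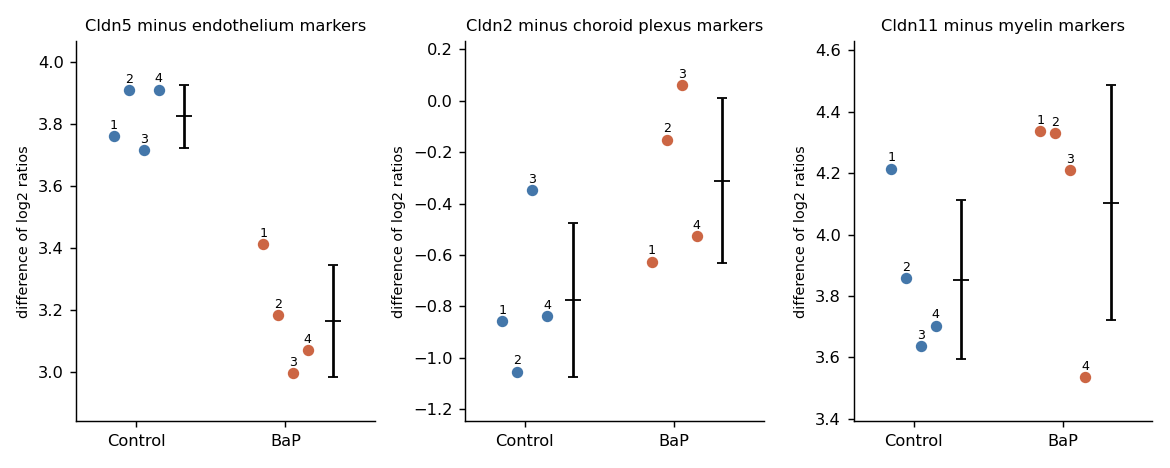
Log2 ratio of *Cldn5*, *Cldn2* and *Cldn11* minus the mean log2 ratio of their home markers in the same mouse (vertical axes), with 1 numbered point per mouse and the mean with its SD (n = 4) in black. The *Cldn5* groups are separate (3.72 to 3.91 in control, 2.99 to 3.41 in exposed mice), and the other groups overlap.

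*Cldn10*, which forms ion pores and is found in astrocytes, was set beside astrocyte markers because it belongs to none of the 3 home tissues above. It gave 4.44, 4.63, 4.96 and 4.67 in control and 4.71, 4.54, 4.42 and 4.59 in exposed mice. The groups overlapped, and the log2 fold change of -0.11 (95% half-width 0.227, adjusted p = 0.807 from limma) was 0.10 with median centering, 0.0953 in slide row 1 and -0.31 in row 2. Leaving out each mouse gave -0.185 (without control mouse 1) to -0.0115 (without control mouse 3). Of 16 astrocyte markers 13 were lower, with a median of -0.0961 and 0 called, while 0 higher and 1 lower passed an unadjusted p of 0.05. The largest difference was in *Mlc1*, a membrane protein of astrocyte endfeet (-0.23, SE 0.0861, adjusted p = 0.529 from limma), followed by *Fgfr3*, a growth factor receptor (-0.20), and *Slc1a2*, a glutamate transporter (-0.17). *Cldn10* had r = 0.779 with the list (exact permutation p = 0.0361, rho = 0.571) and 0.312 without control mouse 3 and BaP-exposed mouse 4. It was 0.265 without control mouse 3 alone (exact permutation p = 0.567) and 0.813 without BaP-exposed mouse 4 alone, so the relation rested on control mouse 3.

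Of 21 other claudins 20 had a probe and 7 were bright enough to test: *Cldn4*, *Cldn7*, *Cldn14*, *Cldn15*, *Cldn22*, *Cldn23* and *Cldn34c1*. Of these 5 were higher and 2 lower, between -0.12 (*Cldn15*, with *Cldn4* at -0.11) and 0.20 (*Cldn34c1*), with 0 at an unadjusted p of 0.05. The proteins that anchor and surround claudins were mixed as well: of 29 tested tight junction partners 13 were higher and 16 lower, the median was -0.0402 and 0 were called. *Tjp1*, the scaffold that ties claudins to actin, was at -0.07 (SE 0.116). The highest were *Tjp3* (0.53, SE 0.363), *F11r*, a junctional adhesion molecule (0.44, SE 0.267), and *Marveld3*, a relative of occludin (0.43, SE 0.177). The lowest were *Cxadr*, an adhesion molecule of the junction (-0.33, SE 0.137), and *Amot* (-0.27, SE 0.0925). Only *Marveld3* among the higher and *Cxadr* and *Amot* among the lower passed an unadjusted p of 0.05 (background 4.53% higher and 4.23% lower), with adjusted p of 0.512 to 0.544 from limma.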

How the data were processed

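The authors deposited, per array, each spot's Cy5 and Cy3 intensity (medians, with background) and its log10 Cy5/Cy3 ratio from Feature Extraction 11.0.1.1, and a table of log2 ratios which, from the values (r of 0.998 or more on each array), are loess-normalized without background correction. Their own test results were not used.

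From the intensities, background was corrected with normexp (offset 50), control spots were left out, outlier spots became missing values, loess normalized the log2 ratios within each array, and spots of a probe were averaged (limma 3.58.1, R 4.3.3). Probes detected in Cy5 (well above background) on 4 or more of 8 arrays were tested with lmFit and eBayes and Benjamini-Hochberg adjustment, and called at an adjusted p of 0.05 and 1.5-fold. The brightest tested probe stood for a gene. Single values were compared by exact permutation over all 70 assignments of the mice, 2-sided (Python 3.11.15, numpy 2.4.6, pandas 2.3.3, scipy 1.17.1). Of 28685 probes with a RefSeq accession, 27235 (94.9%) were named through a RefSeq table of GRCm38.p6. The *Cldn9* promoter was not used here. The fit was tested on simulated data.

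The members, the marker and pathway lists and the tests were chosen with earlier results of these data known. Named genes were all members, the 3 largest differences of each list, those past an unadjusted p of 0.05 in the lists nearest the members (up to 4 each), called genes, and the 5 genes most alike to *Cldn2*, *Cldn5* and *Cldn11* by Pearson r over the 8 arrays. *Ttr*, *Cd93*, *Mobp*, *Mbp* and *Tjp1* were named after their values were seen, and 1 gene alike to *Cldn5* is not reported here. Separate mice stand behind the replicates, 4 of the 5 treated per group. The 8 arrays limit the precision of each value, as does a signal close to background. The alternatives covered background correction, normalization, the deposited ratios, dim and outlier spots, the test, blocks for replicate number and slide row, each row alone, groups by source name and each mouse left out.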

Additional observations from a re-analysis of the deposited data

Results flagged for a closer look

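Of 64 groups of 4 values examined, 2 held a mouse far from the other 3 by Dixon's test, where chance gives about 1 in 20 (3.2 groups). *Cldn11* relative to the myelin marker mean was 3.54 in BaP-exposed mouse 4 and 4.21 to 4.34 in the rest of the exposed group (gap over range 0.843). *Cldn10* relative to the astrocyte marker mean was -0.10 in control mouse 1 and 0.10 to 0.14 in the rest of the controls (gap over range 0.847). Outlier spots numbered 1483 on the array of control mouse 1 and 310 to 371 elsewhere.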

How the results depend on the processing

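The number of called member probes was 0 in all 24 alternatives. The number past an unadjusted p of 0.05, 3 in the text, was 5 with the authors' log2 ratios and with no filter on dim probes, 1 with Agilent's LogRatio and in slide row 1 alone, 0 with groups by source name, and 1 to 7 when each mouse was left out (7 without BaP-exposed mouse 1, 1 without BaP-exposed mouse 2). Grouped by source name, directions turned for *Cldn1* (-0.26), *Cldn2* (-0.56), *Cldn3* (-0.23), *Cldn5* (0.0543), *Cldn12* (-0.0947), the brighter *Ocln* probe (-0.0048), *Cldn10* (0.20), *Cldn5* relative to its markers (0.12) and the means of the choroid plexus (-0.663), endothelial (-0.067), myelin (-0.0403) and astrocyte lists (0.0578), and the erythroid mean was -0.0766 (exact permutation p = 0.686). In slide row 1 alone *Cldn12* was at -0.0078 and *Cldn10* at 0.0953. With median centering *Cldn10* (0.10), the astrocyte mean (0.159), r of *Cldn5* with endothelial markers (0.0915) and r of *Cldn10* with choroid plexus markers (0.0834) turned. With Agilent's LogRatio *Cldn5* relative to its markers was -0.27 (exact permutation p = 0.143), r with choroid plexus markers was -0.181 for *Cldn11*, and r with home markers was 0.0473 for *Cldn11* and 0.446 for *Cldn10*. In Cy5 alone *Cldn2* relative to its markers was 0.25 without overlap (exact permutation p = 0.0286, 0.0286 to 0.714 over its alternatives), r of *Cldn10* was 0.016 with astrocyte and 0.023 with choroid plexus markers. With an offset of 0, r with home markers was 0.524 for *Cldn11* and 0.709 for *Cldn10*, which was 0.671 without background correction. Leaving out each mouse gave r with home markers of 0.367 to 0.772 for *Cldn9*, 0.758 to 0.858 for *Cldn12*, 0.762 to 0.886 for *Ocln* and 0.265 to 0.854 for *Cldn10*. Grouping by source name exchanges the groups in slide row 2 only, so each of its values sets row 1 against row 2. The cause of the other shifts was not tested. For *Cldn2*, *Cldn3* and *Cldn1*, r with choroid plexus markers was 0.847 or more in all 15 alternatives.

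Same-numbered mice of the 2 groups deviated together at r of -0.354 to 0.0313, so the numbers do not pair them, and 0 of the 8 arrays were closest to their own number. With the replicate block the count past an unadjusted p of 0.05 was 3, *Cldn5* had an adjusted p of 0.495 from limma, and no call changed. The probes of *Cldn1*, *Cldn2*, *Cldn3* and *Cldn9* and the dimmer *Ocln* probe lie near background, which limits their fold changes.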

Other observations

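Adherens junctions hold together the cells that tight junctions seal. Of 11 tested genes of these junctions 8 were lower in BaP-exposed mice and 3 higher (median log2 fold change -0.143, 0 called, with 2 lower and 0 higher at an unadjusted p of 0.05, where 4.23% and 4.53% of all probes were). *Nectin2*, an adhesion protein, was at -0.30 (SE 0.115), *Afdn*, which ties nectins to actin, at -0.29 (SE 0.111) and *Nectin1* at -0.25 (SE 0.14), with adjusted p of 0.535, 0.537 and 0.622 from limma.

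Wnt signaling induces and keeps the blood-brain barrier, *Cldn5* among its genes. Of 15 tested genes of that pathway 8 were higher and 7 lower, with 0 called and 2 higher at an unadjusted p of 0.05 (4.53% of all probes). *Fzd4*, a receptor for norrin and Wnt ligands, had a log2 fold change of 0.79 (SE 0.245, adjusted p = 0.499 from limma), *Fzd6* one of 0.40 (SE 0.133, adjusted p = 0.502) and *Wnt7a*, a ligand made by neural cells, one of -0.40 (SE 0.203, adjusted p = 0.6).

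Among cells near the junctions, 6 of 8 pericyte markers were lower (median -0.0406), 7 of 9 ependymal markers were higher (median 0.351) and 8 of 12 meningeal markers were lower (median -0.148), with 0 called in each list. The largest values were *Abcc9* (0.34), *Rgs5* (0.28) and *Vtn* (-0.26) in pericytes, *Dynlrb2* (0.58), *Tekt1* (0.48) and *Rsph1* (0.47) in ependyma, and *Igfbp2* (0.90), *Lum* (0.50) and *Dcn* (-0.43) in meninges. *Igfbp2* was lowest in BaP-exposed mouse 1 (-0.80) and highest in BaP-exposed mouse 3 (2.11), the extremes of the choroid plexus mean too. The meningeal mean differed by -0.0154. Of 14 markers of hippocampal neurons 10 were higher and 4 lower, with *Dsp* at 1.02, *Lct* at 0.68 and *Grik4* at -0.64, and 0 called, while 3 higher and 1 lower passed an unadjusted p of 0.05 (background 4.53% and 4.23%).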
